A study of Homo sapiens with 4 samples.

Results

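The keratins examined here were 10 genes chosen by symbol, split into 4 keratins of simple epithelia (KRT7, KRT8, KRT18 and KRT19) and 6 of the basal and squamous layers (KRT5, KRT14, KRT15, KRT6A, KRT13 and KRT17). All 10 had a row in the deposited table of 28277 genes. RNA sequencing compared NCI-H520 cells, an established line of lung squamous cell carcinoma with wild-type genotype, after 12 h with 10 µM Hx1R8 (2 libraries) and after ultrapure water, called Vehicle (2 libraries). The title of the series names condensates of SOX2, a transcription factor of the squamous lineage. No source used here describes the composition of Hx1R8. Both groups are cultures of this line in medium with 15% fetal bovine serum, at a single dose and time, and the labels leave unsaid if each replicate was its own culture. The p-values given here therefore rest on spread between libraries, mostly estimated over genes together, and this spread may be technical.

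Keratins are the intermediate filament proteins of epithelial cells, and a filament is built from pairs of a type I and a type II keratin. KRT8 (type II) pairs with KRT18 or KRT19 (type I) in single-layered epithelia, where KRT7 is a second type II partner of glandular and ductal cells. In stratified epithelia the basal layer is known for the pair of KRT5 (type II) and KRT14 (type I), with KRT15 as a further type I keratin of basal cells. KRT6A and KRT17 are induced in wounded or hyperproliferative epithelium, and KRT13 is the type I keratin of the upper layers of wet stratified linings. Squamous carcinomas are usually recognised by KRT5 and KRT6, glandular ones by KRT7, KRT8 and KRT18.

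Total counts were 17259403 and 20920857 in Hx1R8 replicates 1 and 2, and 17483349 and 17352323 in Vehicle replicates 1 and 2. Of 18 squamous and basal markers, 7 lay under 1 CPM (counts per 1000000 counts of the library) in Hx1R8 and 7 in Vehicle. DSG3, a desmosomal cadherin of squamous cells, had no read in any library, and TP63, the squamous lineage factor, was at 0.580 and 0.715 CPM in Hx1R8 and 0.400 and 0.462 CPM in Vehicle. SOX2 stood at 522 and 497 CPM in Hx1R8 and 541 and 514 CPM in Vehicle. SOX2, PITX1, a transcription factor, and ITGA6, an integrin of the basal cell surface, were the markers of the list above 100 CPM, while KRT5, KRT14, DSG3 and TP63 were each under 2 CPM in every library. The pan-epithelial list, which holds KRT8 and KRT18 themselves, summed to 1838 to 1857 CPM in Hx1R8 and 1843 to 1893 CPM in Vehicle, with EPCAM, an epithelial adhesion protein, at 514 and 481 CPM in Hx1R8 and 508 and 499 CPM in Vehicle. Of 10 lung adenocarcinoma and alveolar markers, 6 lay under 1 CPM in Hx1R8 and 5 in Vehicle. Their sum was 155 to 159 CPM in Hx1R8 and 157 to 161 CPM in Vehicle, led by ABCA3. NKX2-1 was at 10.2 and 11.8 CPM in Hx1R8 and 12.8 and 10.6 CPM in Vehicle. NAPSA and SFTPC had no read in any library. The neuroendocrine list of 11 genes summed to 1065 CPM in Hx1R8 and in Vehicle, led by CHGB, a granin, and UCHL1, a neuronal hydrolase. Summed over 8 immune markers the level was 2.26 to 3.004 CPM in Hx1R8 and 3.48 to 3.58 CPM in Vehicle, with PTPRC, CD3E and MS4A1 at 0 in all libraries. Over 6 endothelial markers it was 2.61 to 3.34 CPM in Hx1R8 and 3.83 to 3.99 CPM in Vehicle, with PECAM1 at 0 in all libraries. Over 10 fibroblast markers it was 13.3 to 13.4 CPM in Hx1R8 and 13.1 to 13.3 CPM in Vehicle, with COL3A1 at 0 in all libraries. The part of other cell types in the keratin values was not tested.

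Copies bear on how far a keratin count belongs to its gene, and KRT6A has 2 functional copies beside it in the chromosome 12 cluster. KRT6A, KRT6B and KRT6C have coding sequences of 1692 bases each in GENCODE v29, and KRT6A differs from KRT6B at 42 of these and from KRT6C at 35. The stretch of 60 coding bases where the copies differ most from KRT6A (coding bases 663 to 722, minus strand, GRCh38) is shown because reads from it can be told apart, with capitals at every base on which the 3 genes are not all alike.
KRT6A (chr12:52491555-52491614): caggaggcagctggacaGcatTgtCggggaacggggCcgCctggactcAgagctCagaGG
KRT6B (chr12:52450439-52450498): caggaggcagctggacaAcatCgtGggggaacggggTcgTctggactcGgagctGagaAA
KRT6C (chr12:52472099-52472158): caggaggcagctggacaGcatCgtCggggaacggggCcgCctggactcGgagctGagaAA
Within it KRT6B differed from KRT6A at 9 bases and KRT6C at 5, whereas elsewhere KRT6A ran for 349 coding bases without a difference from KRT6C and for 269 without a difference from KRT6B. The counts nevertheless fell almost wholly on KRT6A, with 307 and 358 reads in Hx1R8 and 348 and 341 in Vehicle, against 5 and 7 in Hx1R8 and 6 and 7 in Vehicle for KRT6B. KRT6C had 2 reads and 1 read in Hx1R8 and 1 read in each Vehicle library. Of all 50-base words of the KRT6A transcript, 39.1% also occur in a transcript of another gene in GENCODE v29. The same share was 36.9% for KRT8 and 52.5% for KRT18, which have 50 and 68 annotated pseudogene copies in GENCODE v29, of which the deposited table lists 1 each. Neither listed copy (KRT8P41 and KRT18P55) had a read in any library. It was 23.8% for KRT14, 18.4% for KRT13, 17.4% for KRT17, 10.8% for KRT7, 3.99% for KRT5, 1.79% for KRT19 and 0.725% for KRT15. With 100-base words the share was lower, at 18.2% for KRT6A, 7.75% for KRT8, 18.4% for KRT18, 5.95% for KRT14, 14.8% for KRT13, 0.353% for KRT17, 7.67% for KRT7, 1.44% for KRT5 and 0 for KRT19 and KRT15. All of this 100-base share lay with KRT8 for KRT18 and with KRT7-AS for KRT7. These are genes that overlap them on the chromosome, not copies elsewhere. At 50 bases, 23.8% of the words of KRT18 occur in KRT8. No source used here gives the read length. The sources used here do not say how reads that match several places were counted, so the levels of KRT8, KRT18 and KRT6A are uncertain by whatever reads such treatment left out or moved.

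The cells expressed simple keratins at a far higher level than basal ones. In TPM (transcripts per 1000000), which divides each count by the gene's listed exon length, the 4 simple keratins summed to 2208 and 2264 TPM in Hx1R8 and 2189 and 2287 TPM in Vehicle. The 6 basal and squamous keratins summed to 31.5 and 32.4 TPM in Hx1R8 and 36.2 and 37.1 TPM in Vehicle. The simple sum was thus 70.0-fold and 69.9-fold the basal sum in the Hx1R8 libraries, and 60.5-fold and 61.6-fold in the Vehicle libraries. The mean basal sum was 32.0 ± 0.608 TPM in Hx1R8 and 36.6 ± 0.689 TPM in Vehicle, and the mean simple sum 2236 ± 39.4 TPM in Hx1R8 and 2238 ± 69.5 TPM in Vehicle (SD, n = 2 each). The Hx1R8 libraries thus lay below the Vehicle libraries in the basal sum and overlapped them in the simple sum. In bulk RNA, fewer cells of a type and less RNA per cell cannot be told apart.

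**Figure D1:**
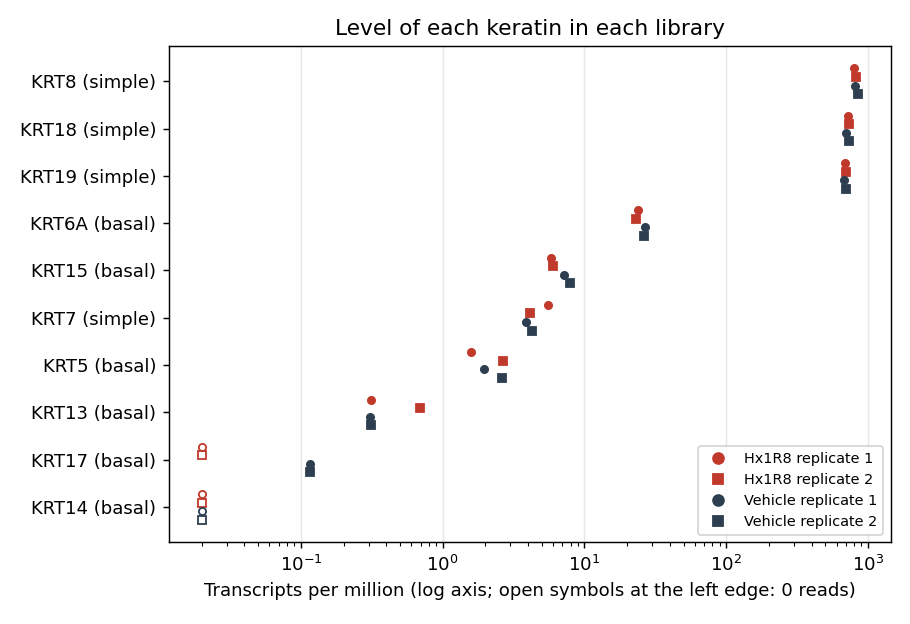
Level of each of the 10 keratins in each library, in TPM on a log axis, ordered by the mean over 4 libraries, with Hx1R8 drawn above Vehicle in each row and open symbols for 0 reads. KRT8, KRT18 and KRT19 lie between 679 and 847 TPM in every library, and KRT6A, the highest basal keratin, lies between 23.0 and 26.6 TPM.

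KRT8, the type II keratin of simple epithelia, led the order at 801 and 817 TPM in Hx1R8 and 804 and 847 TPM in Vehicle, rank 139 among all genes by mean TPM. Its groups overlapped, with 1 Vehicle library between the Hx1R8 libraries and the other above both. KRT18, its type I partner, was at 718 and 738 TPM in Hx1R8 and 702 and 732 TPM in Vehicle, with the groups overlapping. KRT19, the smallest type I keratin, was at 684 and 704 TPM in Hx1R8 and 679 and 705 TPM in Vehicle, again with overlap. KRT8 exceeded KRT18 and KRT18 exceeded KRT19 within each of the 4 libraries, and KRT19 stood at 0.952 and 0.953 of KRT18 in Hx1R8 and 0.968 and 0.963 in Vehicle. The ranges of KRT18 and KRT19 over the libraries overlapped, while their ratio within a library was below 1 in all 4. KRT7 did not share this level. KRT7 was at 5.50 and 4.11 TPM in Hx1R8 and 3.90 and 4.26 TPM in Vehicle, rank 11193, and KRT8 was 146-fold and 199-fold above it in Hx1R8 and 206-fold and 199-fold above it in Vehicle.

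Among basal and squamous keratins, KRT6A was the only member above 10 TPM. It was at 23.8 and 23.0 TPM in Hx1R8 and 26.6 and 26.2 TPM in Vehicle, and made up 75.4% and 71.2% of the basal sum in Hx1R8 and 73.5% and 70.6% in Vehicle. KRT15 came next, at 5.85 and 5.99 TPM in Hx1R8 and 7.20 and 7.88 TPM in Vehicle. For both, each Hx1R8 library lay below each Vehicle library. KRT5, the defining basal keratin, was at 1.60 and 2.66 TPM in Hx1R8 and 1.97 and 2.62 TPM in Vehicle, with the groups overlapping. KRT5 thus stood below KRT7 in the order, and their ranges over the libraries did not overlap.

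The usual type I partner of KRT5 was without reads. KRT14 had 0 reads in all 4 libraries, which allows up to 0.174 and 0.143 CPM in Hx1R8 and 0.172 and 0.173 CPM in Vehicle (3 counts per library, counting error only). KRT17 had 0 reads in both Hx1R8 libraries and 1 read in each Vehicle library, under the same floor, so no fold is given. KRT13 had 3 and 8 reads in Hx1R8 and 3 in each Vehicle library, which is at the floor in 3 of the 4 libraries. These 3 genes did not pass the low-count filter and were not tested, so 7 of the 10 members were.

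The balance of the partner types differed between the classes. Among simple keratins the type I members summed to 1.74-fold and 1.76-fold the type II members in Hx1R8, and 1.71-fold and 1.69-fold in Vehicle, on the TPM scale. KRT18 alone was at 0.897 and 0.904 of KRT8 in Hx1R8 and 0.873 and 0.864 in Vehicle, with KRT19 adding nearly as much type I transcript again. Among basal keratins the excess lay with type II, at 4.12-fold and 3.85-fold the type I sum in Hx1R8 and 3.74-fold and 3.47-fold in Vehicle. That sum is mostly KRT6A over KRT15. These sums were not tested, because the members were chosen with earlier results of these data known.

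**Figure D2:**
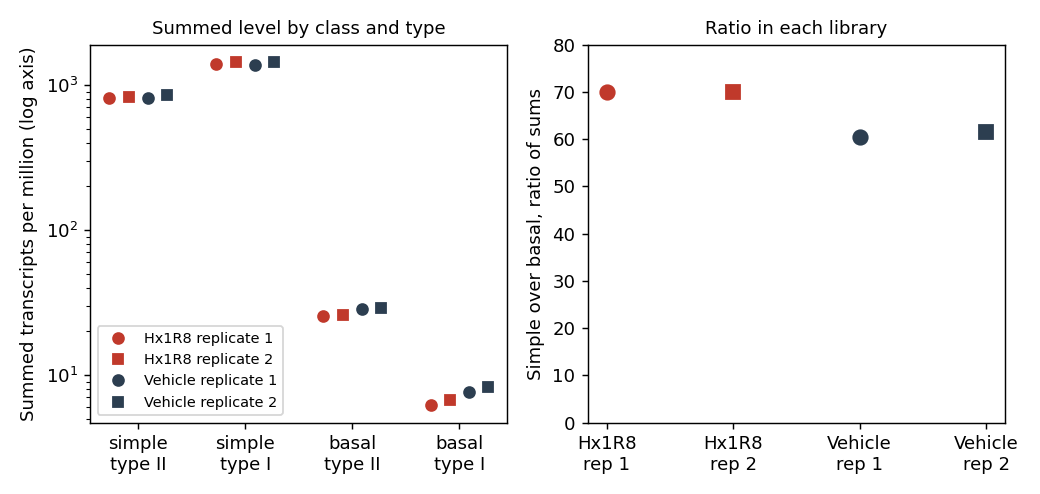
Left, summed TPM of simple and basal keratins by type in each library, on a log axis. Right, the simple sum over the basal sum in each library, on an axis from 0. The Hx1R8 libraries are at 70.0 and 69.9 and the Vehicle libraries at 60.5 and 61.6.

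Neighbours in the keratin clusters differed widely in level. The table lists 55 keratin genes, 27 on chromosome 12 (52168996 to 52952906, hg38) and 28 on chromosome 17 (40654665 to 41624575). A mean of at least 1 CPM over the 4 libraries was reached by 10 of them, and at least 10 CPM by 6, namely KRT8, KRT18, KRT19, KRT6A, KRT10 and KRT20. KRT15 (chromosome 17, 41513745 to 41518890) and KRT19 (41523617 to 41528308) are next to each other among the listed keratin genes, 4726 bases apart on the minus strand. KRT19 was nevertheless 117-fold and 118-fold above KRT15 in Hx1R8 and 94.3-fold and 89.5-fold in Vehicle, in TPM. KRT5 (chromosome 12, 52514575 to 52520394) and KRT6A (52487176 to 52493257) are likewise next to each other among them, and KRT6A was 14.9-fold and 8.68-fold above KRT5 in Hx1R8 and 13.5-fold and 10.0-fold in Vehicle.

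KRT8 (chromosome 12, 52897191 to 52949860, minus strand) and KRT18 (52948871 to 52952906, plus strand) adjoin at the end of the chromosome 12 cluster and overlap there. They share 135 exon bases on opposite strands. No source used here gives the strand setting of the counting, so reads in those bases cannot be assigned to either gene with certainty. The rest of their exons is their own for 93.5% of the 2247 bases of KRT8 and 90.9% of the 1481 bases of KRT18. Of the exon bases of KRT7, 86.4% are its own, the others being shared with KRT7-AS, an antisense gene that had 3 reads and 1 read in Hx1R8 and 3 and 0 reads in Vehicle.

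**Figure D3:**
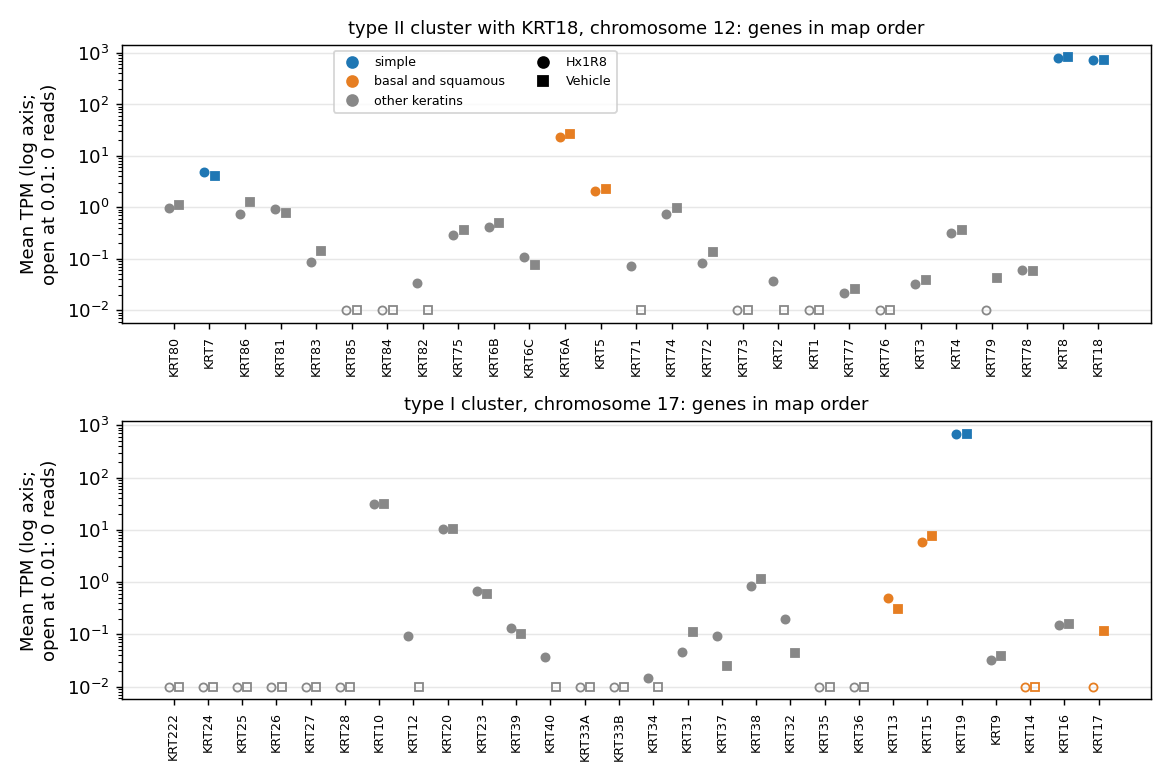
Mean TPM of every keratin gene in map order along the chromosome 12 and chromosome 17 clusters, on a log axis, for Hx1R8 (circles) and Vehicle (squares), with open symbols for 0 reads. KRT8 and KRT18 stand together at the end of the chromosome 12 cluster, and KRT19 stands beside KRT15 on chromosome 17.

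No keratin changed past the threshold after Hx1R8. Of the 7 tested members, 0 were called higher and 0 lower by edgeR's quasi-likelihood test (Benjamini-Hochberg adjusted p under 0.05), where 0.0207% of all 14482 tested genes were called. DESeq2 and limma-voom also called 0 of them, and 1 of the 7 had an unadjusted edgeR p under 0.05, where 491 of the 14482 tested genes had one. The adjusted p was 0.9999 for each of the 7. Over the members the median log2 fold change was -0.04, against -0.0018 over all tested genes.

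The 3 abundant simple keratins were bounded closely. KRT8 had a log2 fold change of -0.04 (SE 0.05), with a 95% interval of the fold from 0.913 to 1.04. KRT18 was at 0.01 (SE 0.05), with an interval from 0.946 to 1.08, and KRT19 at -0.0050 (SE 0.05), with an interval from 0.934 to 1.06. The interval of the fold lay within 1.5-fold of no change for these 3 and for KRT6A, so for 4 of the 7 tested members, against 81.4% of all tested genes. KRT7 had 50 and 45 reads in Hx1R8 and 36 and 39 in Vehicle, and its log2 fold change of 0.21 (SE 0.23) had an interval of the fold from 0.834 to 1.60. Its value rested on Hx1R8 replicate 1, without which it was -0.0040.

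The 3 tested basal keratins all had estimates below 0, without a call. KRT6A had a log2 fold change of -0.18 (SE 0.09), with a 95% interval of the fold from 0.777 to 0.997 and an unadjusted edgeR p of 0.0451. The unadjusted p of KRT6A was 0.193 with DESeq2 and 0.0464 with limma-voom. KRT15 had 56 and 69 reads in Hx1R8 and 70 and 76 in Vehicle, a log2 fold change of -0.36 (SE 0.18) and an interval from 0.605 to 1.01 (unadjusted p from the edgeR fit across all genes, 0.0571). KRT5, with 20 and 40 reads in Hx1R8 and 25 and 33 in Vehicle, was at -0.09 (SE 0.28), with an interval from 0.633 to 1.40. Its sign turned without Hx1R8 replicate 1 (0.20) and without Vehicle replicate 2 (0.14). Both Hx1R8 libraries lay below both Vehicle libraries in CPM for 2 of the 7 tested members, KRT6A and KRT15, against 15.2% of all tested genes, and above them for 0 of the 7, against 14.7%.

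**Figure D4:**
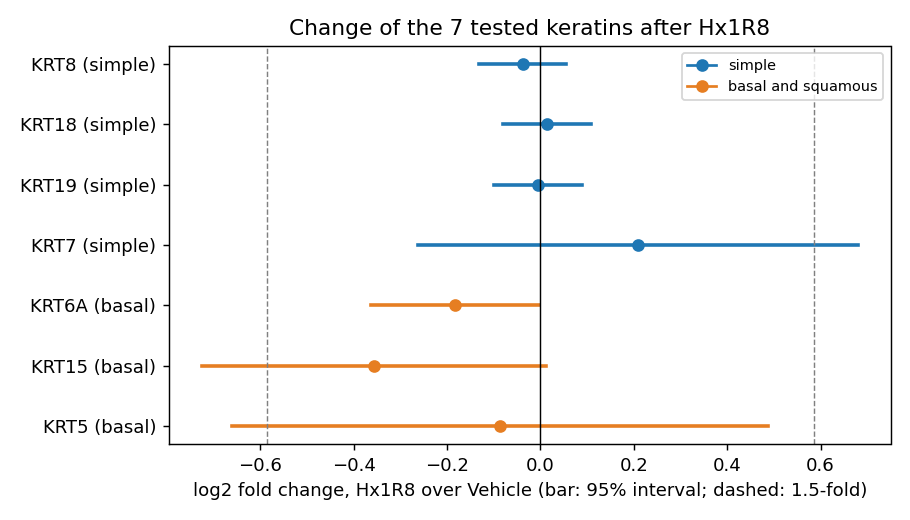
Log2 fold change of the 7 tested keratins, Hx1R8 over Vehicle, with 95% intervals from edgeR and dashed lines at 1.5-fold. KRT8, KRT18 and KRT19 have narrow intervals around 0, and KRT6A (-0.18), KRT15 (-0.36) and KRT5 (-0.09) lie to the left of 0 with wider ones.

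The share of basal reads among all reads on the 10 keratins gives this contrast with the counting error of each library. It was 1.77% in Hx1R8 replicate 1 (95% Wilson interval 1.61 to 1.96) and 1.77% in Hx1R8 replicate 2 (1.62 to 1.94). It was 2.03% in Vehicle replicate 1 (1.85 to 2.23) and 1.99% in Vehicle replicate 2 (1.81 to 2.18). Both Hx1R8 shares lay below both Vehicle shares, while the counting intervals of single libraries overlapped between the groups. Such an overlap does not show whether counting error covers the difference between the groups. The share rests on 386 and 475 basal reads in Hx1R8 and 447 and 454 in Vehicle, and the intervals cover counting error only. The share, the basal sum and the simple over basal ratio are forms of the same contrast and not separate observations. Whether basal keratins responded differently from simple ones was not tested.

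Among the other 45 keratin genes, 8 passed the filter and 0 were called, with a median log2 fold change of -0.08. KRT10, a type I keratin of differentiating epidermis, was at 32.0 and 31.5 TPM in Hx1R8 and 33.9 and 28.5 TPM in Vehicle, above KRT6A in every library. KRT20, a type I keratin of gut and urothelium, was at 10.2 and 11.0 TPM in Hx1R8 and 11.1 and 9.59 TPM in Vehicle. Both had overlapping groups, and 38 of the 45 were under 1 CPM in every library.

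Cytolinkers, desmosome proteins and other genes linked to keratin filaments gave 0 edgeR calls among 13 tested genes of 14. Their median log2 fold change was 0.02. DSP, the desmosomal plakin that binds keratin filaments, was at 138 and 140 TPM in Hx1R8 and 134 and 137 TPM in Vehicle (log2 0.03, SE 0.05). JUP, plakoglobin of the desmosomal plaque, was at 113 and 118 TPM in Hx1R8 and 111 and 118 TPM in Vehicle (log2 -0.0022, SE 0.05). EVPL, the plakin envoplakin, was at 0.10 (SE 0.07), PKP2, a plakophilin, at 0.11 (SE 0.08) and PKP3, another plakophilin, at -0.05 (SE 0.06).

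Transcription factors with known roles at keratin genes gave 0 calls among 20 tested genes of 26, with a median log2 fold change of 0.01. CEBPB, a bZIP factor of differentiating epithelium, had the smallest unadjusted edgeR p of the list (0.0060), at 13.3 TPM in both Hx1R8 libraries and 10.2 and 10.3 TPM in Vehicle (log2 0.37, SE 0.13). The unadjusted p of CEBPB was 0.0732 with DESeq2 and 0.0079 with limma-voom. Of the 2109 exon bases of CEBPB, 73.4% are shared with no other listed gene. JUNB, an AP-1 subunit, was at 37.7 and 37.8 TPM in Hx1R8 and 42.7 and 41.5 TPM in Vehicle (log2 -0.17, SE 0.08). KLF4, an epithelial differentiation factor, was at 273 and 280 TPM in Hx1R8 and 287 and 277 TPM in Vehicle, and its interval of the fold ran from 0.914 to 1.04.

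Genes of the cornified squamous cell were mostly near or at 0. Of 17 such genes 4 passed the filter, 0 were called and 14 were under 1 CPM in every library. TRIM29, a protein of basal and squamous epithelium, had the highest mean TPM of the list, at 28.5 and 27.8 TPM in Hx1R8 and 26.8 and 30.2 TPM in Vehicle, with overlapping groups.

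The genes whose profile over the 4 libraries came closest to that of KRT8 were not keratins. Among 9638 other genes with a mean of at least 10 CPM, the root mean square difference of centred log2 CPM was 0.0015 for HIPK2, a protein kinase, 0.0020 for NDUFV1, a subunit of mitochondrial complex I, and 0.0032 for CLUH, an RNA-binding protein. The median over all was 0.058. KRT19 ranked 510 at 0.019 and KRT18 ranked 1215 at 0.027. With 4 libraries that hardly differ, this is a description and shows no relation between the genes.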

How the data were processed

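Gene expression was measured by RNA sequencing in 4 libraries of NCI-H520 cells. The authors deposited raw counts per gene with exon coordinates and a summed exon length, per the file headers, and the submitters' processing notes name STAR 2.7.9 and hg38. No source used here gives the counting tool, the annotation or the strand setting. From 1.5 µg of total RNA each, libraries were made with a kit of ABclonal, per the labels' protocols. The table's 2 broken lines were left out.

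The test on the counts was that of edgeR 4.0.16, run in R 4.3.3 (quasi-likelihood, TMM factors of 0.998 to 1.00, filterByExpr, group as the only term, two-sided, Benjamini-Hochberg over 14482 genes, threshold 0.05), with 2 residual and 36.9 prior degrees of freedom. CPM used TMM-scaled totals, TPM the listed exon length, and log2 CPM a prior count of 2. Alternatives used other factors and filters, DESeq2 1.42.0, limma-voom (limma 3.58.1), a replicate block and 1 library less. Library pairs differed by a chi-square per gene of 1.48 to 2.94, the most for the Vehicle pair, and all 4 libraries were counted as separate samples. Members and lists were chosen with earlier results of these data known. The rule for named genes took all members, from each list up to 4 genes of smallest p and up to 4 of highest mean TPM, SOX2, TP63 and the 3 profiles nearest to that of KRT8; the text gives a part of them. KRT6B, KRT6C, KRT8P41, KRT18P55, KRT7-AS, PITX1, ITGA6, EPCAM, DSG3, CHGB, UCHL1, PTPRC, CD3E, MS4A1, PECAM1 and COL3A1 were named after their values were seen. So were KRT16, ESRP1, ESRP2, CLDN4, CLDN7, ELF3, CDH1, GRHL2, ABCA3, NKX2-1, NAPSA and SFTPC.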

Additional observations from a re-analysis of the deposited data

How the results depend on the processing

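None of the 7 tested members was called under any of the 12 alternatives, and neither was any of the 14 other genes recomputed under them (KRT10, KRT20, DSP, EVPL, PKP2, PKP3, JUP, SOX2, KLF4, CEBPB, JUNB, VIM, NEFL and TRIM29). KRT15 (-0.42 to -0.29) and KRT6A (-0.21 to -0.15) were below 0 with each library left out. Their groups do not overlap, so leaving out a library could hardly change this sign. In the edgeR, DESeq2 and limma-voom alternatives with all 4 libraries, the adjusted p of both was 0.995 to 0.9999. Signs turned, without a call and with the cause not tested, without Hx1R8 replicate 1 for KRT7 (-0.0040), KRT19 (0.0087), KRT5 (0.20), KRT10 (-0.0042) and JUP (0.020), without Hx1R8 replicate 2 for KRT20 (-0.020) and TRIM29 (0.00049), without Vehicle replicate 1 for KRT18 (-0.019) and VIM (-0.039), without Vehicle replicate 2 for KRT8 (0.0054), KRT19 (0.027), KRT5 (0.14), KRT10 (-0.10), KRT20 (-0.068), JUP (0.048) and TRIM29 (0.066), and with no low-count filter for JUP (0.0021). With 1 library left out, log2 values ran from -0.0040 to 0.43 for KRT7, -0.078 to 0.0054 for KRT8, -0.019 to 0.050 for KRT18, -0.034 to 0.027 for KRT19, -0.52 to 0.20 for KRT5, -0.10 to 0.14 for KRT10, -0.068 to 0.13 for KRT20, -0.048 to 0.048 for JUP, -0.039 to 0.058 for VIM and -0.12 to 0.066 for TRIM29. Over all genes, 2 were higher and 1 lower, 1 higher with DESeq2, and 2 to 41 higher and 1 to 38 lower with 1 library left out, the lone sample being assumed to vary like the other group. The simple over basal ratio was 55.4 in Hx1R8 and 48.8 in Vehicle with no length scaling, 74.0 and 64.6 with unshared exon bases as length, and 168 and 138 without KRT8 and KRT6A. With 1 library left out, a group's ratio is that of its remaining library (69.9 to 70.0 in Hx1R8, 60.5 to 61.6 in Vehicle). Leaving out a library therefore could not change the order of the groups. Hx1R8 was above Vehicle under the other settings given. A fit with a replicate block called 2 genes higher, 1 lower and 0 of the 7 tested members. Deviations of libraries with equal numbers had a correlation of 0.0316 over genes, which cannot exclude a pairing. The labels give common numbers without saying what a number marks. Depth limits KRT7, KRT15 and KRT5, with under 80 reads each per library, and leaves KRT13, KRT14 and KRT17 untested.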

Other observations

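Of the non-keratin intermediate filament genes, VIM was at a level close to that of KRT18 and KRT19. VIM, vimentin of mesenchymal cells, was at 735 and 750 TPM in Hx1R8 and 711 and 756 TPM in Vehicle, and its groups overlapped. Of the 2154 exon bases of VIM, 70.2% are shared with no other listed gene. With the strand setting of the counting unknown, reads in the shared bases of VIM cannot be assigned with certainty. NEFL, the light neurofilament protein of neurons, was at 238 and 241 TPM in Hx1R8 and 235 and 231 TPM in Vehicle, with both Hx1R8 libraries above both Vehicle libraries and a log2 fold change of 0.03 (SE 0.05). NEFL was therefore above KRT6A, the highest basal keratin, in every library. Of 15 such genes 10 were tested and 0 were called by edgeR, with a median log2 fold change of 0.01.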
